A study of Mus musculus with 4 samples.

Results

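The genes described here are 9 genes of GABAergic neurons and immature neurons: the homeobox genes Dlx1, Dlx2, Dlx5 and Lhx6, the GABA-synthesizing enzymes Gad1 and Gad2, and the neuronal genes Dcx, Elavl3 and Elavl4. They were taken by symbol from a table of 35869 gene rows, and each of the 9 symbols stood on a single row. They were chosen by their KO and WT FPKM in these same libraries together with what the genes are known to do, so those values are given as a description and with no test. RNA was sequenced from oligodendrocytes, the glia that wrap central axons in myelin, sorted from mouse cortex at postnatal day 5 as cells carrying both the O4 and GalC surface lipids. The sample labels also enter these cells under a cell line field, against that description of cells sorted from tissue. Of the libraries, 2 came from Zfp488KI/KI mice, which carry a knock-in on both copies of Zfp488 and are labelled Zfp488 KO (KO), and 2 from wild-type mice (WT). The sources used here do not describe how the allele was built, the strain, or how many animals stand behind a library. Whether replicate libraries are separate animals is not said, so p-values here measure variation between libraries that could be technical.

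In the embryonic ventral forebrain, Dlx transcription factors act in progenitors that give rise to GABAergic interneurons. There, Dlx1 and Dlx2 favour the neuronal over the oligodendrocyte fate and switch on Gad1 and Gad2. Lhx6 acts in interneurons that arise in the medial ganglionic eminence, Dcx binds microtubules in migrating neurons, and Elavl3 and Elavl4 are neuronal RNA-binding proteins. These genes are not known as part of the programme of mature oligodendrocytes, and a sort on O4 and GalC selects for the oligodendrocyte lineage rather than for neurons. In bulk RNA, a change in the number of cells of a type and a change in RNA per cell cannot be told apart.

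Among the 9 genes Dlx2 had the widest separation of the genotypes, and its neighbour Dlx1 did not share it. The 3 promoter stretches below are those of Dlx2 and of Gad1 and Gad2, the enzymes that Dlx factors are known to switch on. They come from RefSeq (GRCm38.p6), lie upstream of the annotated start, and leave out bases that a GENCODE exon covers. Capitals mark the homeodomain core TAAT and the E-box CANNTG, to which basic helix-loop-helix factors bind, each searched on both strands.
Dlx2, chr2:71546755-71547004, minus strand: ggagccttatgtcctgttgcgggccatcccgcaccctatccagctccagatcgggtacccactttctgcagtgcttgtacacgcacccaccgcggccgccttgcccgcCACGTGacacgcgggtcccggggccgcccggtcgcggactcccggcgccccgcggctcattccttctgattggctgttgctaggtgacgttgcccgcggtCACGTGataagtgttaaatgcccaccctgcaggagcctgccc
Gad1, chr2:70561879-70562041, plus strand: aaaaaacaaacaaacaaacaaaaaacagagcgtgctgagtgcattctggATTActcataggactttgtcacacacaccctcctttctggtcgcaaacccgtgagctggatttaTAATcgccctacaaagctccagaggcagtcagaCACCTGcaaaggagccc
Gad2, chr2:22622077-22622204, plus strand: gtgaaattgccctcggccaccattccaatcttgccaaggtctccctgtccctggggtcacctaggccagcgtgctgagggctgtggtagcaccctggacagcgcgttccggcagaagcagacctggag
The Dlx2 stretch ends at the start site and holds 2 E-boxes, both with the palindromic letters CACGTG, and 0 TAAT cores. In the Gad1 stretch, which ends 87 bases before the RefSeq start and inside a longer GENCODE model of the gene, there were 2 TAAT cores and 1 E-box. The Gad2 stretch, ending 122 bases before the start, held 0 of either motif, whereas the full 250 bases before that start held 1 E-box. Among the 250 bases before each of 32841 RefSeq starts, 54.9% held a TAAT core and 66.2% an E-box, so either motif is common. The Gad1 and Gad2 stretches are shorter than 250 bases, so these shares are not a like comparison for them. These matches describe letters and say nothing of binding.

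The values are FPKM, read fragments scaled to transcript length and to the mapped fragments of the library. Zfp488 was at 4.82 and 4.11 FPKM in KO 1 and KO 2, against 6.61 and 5.29 FPKM in WT 1 and WT 2. Reads from what remains of the locus would still be counted, so this checks the labels only weakly. Library totals lay between 311846 and 341145 FPKM, and total reads are not given. Low values multiplied by transcript length gathered at a single level in each library, with 98 to 140 values in the fullest bin against a median of 10 to 11.5 per bin. Taken as 1 read, that level makes 1 FPKM on a transcript of 1 kb about 37.6 to 44.2 reads. Not all low values fall on such steps, and some are worth less than 1 read, so reads given here are approximate. A gene listed at 0 may be absent or may be a failed estimate, and these values cannot tell which. Mal, a myelin gene, was listed at 0 in all 4 libraries. Markers of other cell types differed between libraries of the same genotype: the summed FPKM of 12 endothelial and mural genes was 10.5 and 73.2 in KO 1 and KO 2, and 0.497 and 80.5 in WT 1 and WT 2.

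Both KO libraries lay above both WT libraries for 2 of the 9 genes, Dlx2 and Elavl4. Both lay below for 0, and the genotypes overlapped for the other 7. Of the 22897 rows above 0 in at least 1 library, 13.8% had both KO libraries above and 13.3% had both below. The median difference of the 9 genes on the log2(FPKM + 1) scale was -0.0086, with 3 positive differences. For the 4 of them that were tested it was 0.092, beside a median of 8.1e-05 over all 10754 rows tested. Only 4 of the 9, Dlx2, Dcx, Elavl3 and Elavl4, reached 1 FPKM in at least 2 libraries, the minimum for testing, and Dlx2 did so through the KO libraries alone. Across the whole table the percentage of rows past an adjusted p of 0.05 (limma, Benjamini-Hochberg) was 0, with 608 of 10754 rows at an unadjusted p under 0.05, of which 302 were higher and 306 lower in KO. Rescaling each library to TPM turned these into 383 higher and 181 lower rows.

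**Figure D1:**
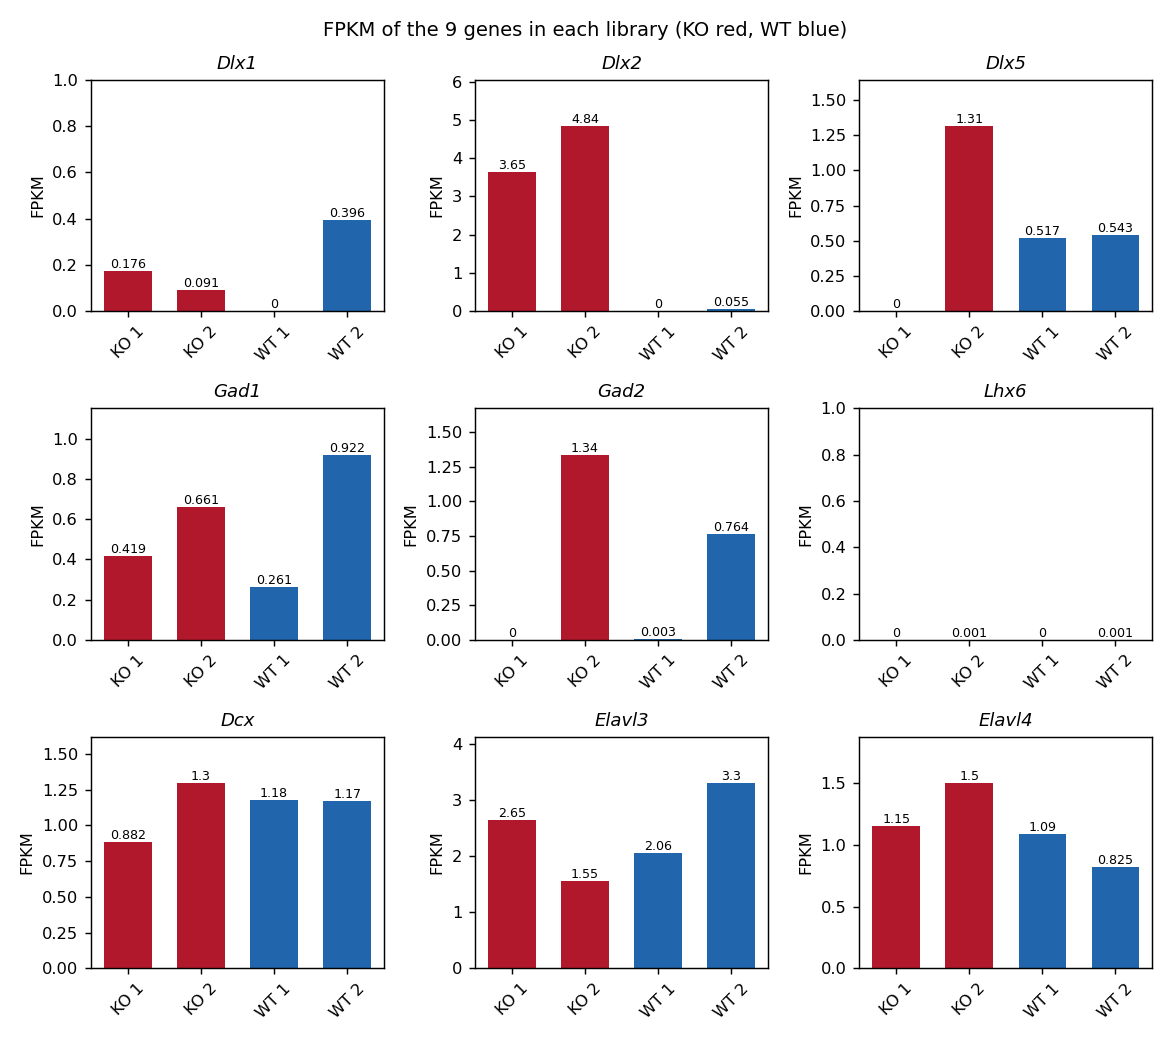
FPKM of each of the 9 genes in the 2 KO libraries (red) and the 2 WT libraries (blue), 1 bar per library with its value above and a separate axis from 0 for each gene. Dlx2 was at 3.65 and 4.84 FPKM in KO against 0 and 0.055 FPKM in WT, while Gad2 was high in KO 2 and WT 2 and at or near 0 in KO 1 and WT 1.

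Dlx2 (ENSMUSG00000023391.8) is a gene of 3 exons on the minus strand of chromosome 2 (71543408 to 71546754 in GRCm38). It was at 3.65 and 4.84 FPKM in KO 1 and KO 2, and at 0 and 0.055 FPKM in WT 1 and WT 2. The groups were far apart, and each was even within itself. With that estimate and a transcript of 2473 bp, these values stand for about 355 and 469 reads in KO and about 0 and 6 reads in WT. The difference on the log2(FPKM + 1) scale was 2.34, with a replicate SD of 0.17, and no fold change is given because a WT library is listed at 0. In KO, Dlx2 had the highest mean of the 9 genes, above 71.8% of rows with a value, while in WT it ranked 8th, above 29.2% of them. Dlx2 stayed between 2.18 and 2.51 on this scale when any single library was left out. With a pseudocount of 0.1 the difference was 5.11, and after rescaling to TPM it was 3.73.

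Rows with a pattern like that of Dlx2 were counted at cutoffs of 0.1 and 3 FPKM. These lie close to the values of Dlx2 itself, so the count does not show how rare its pattern is. In all, 4 rows had at most 0.1 FPKM in both WT libraries and at least 3 FPKM in both KO libraries: Dlx2, Gm13152, the zinc finger gene Zfp773 and Enpp3, an ectonucleotidase. The opposite pattern, near 0 in KO and at least 3 FPKM in WT, was found in 5 rows. Rows at 2 FPKM or more in a single library and at most 0.1 FPKM in the other 3 numbered 59 in KO 1, 75 in KO 2, 63 in WT 1 and 85 in WT 2. That cutoff is lower than the 3 FPKM used for both libraries of a genotype, so these counts cannot be compared directly.

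Dlx1 (ENSMUSG00000041911.3) lies 9427 bp from Dlx2 on the opposite strand, the pair facing each other at their 3' ends. It was at 0.176 and 0.091 FPKM in KO 1 and KO 2, against 0 and 0.396 FPKM in WT 1 and WT 2. The WT libraries bracketed the KO libraries, so nothing in Dlx1 paralleled Dlx2. Dlx1as, an antisense transcript that overlaps Dlx1, was at 0.887 and 0.52 FPKM in KO and at 0 and 1.61 FPKM in WT. Its libraries fell in the same order as those of Dlx1. The strand setting of the counting is not given, so reads of Dlx1 and Dlx1as cannot be told apart. Metap1d, a methionine aminopeptidase gene 2919 bp from Dlx1 on its other side, was at 0.664 and 0.369 FPKM in KO and at 0.752 and 1.72 FPKM in WT, lower in both KO libraries. No RefSeq gene overlapped Dlx2.

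Dlx5 (ENSMUSG00000029755.10), a related homeobox gene on chromosome 6, was listed at 0 in KO 1 and at 1.31 FPKM in KO 2. In WT 1 and WT 2 it was at 0.517 and 0.543 FPKM, between the KO values. The even WT pair and the split KO pair gave a difference of -0.0086 on the log2(FPKM + 1) scale, with a replicate SD of 0.61. Its partner Dlx6, 9831 bp away, was listed at 0 in all 4 libraries. Dlx6os1, a long non-coding RNA that runs across Dlx6, was at 2.45 and 0.012 FPKM in KO and at 0.006 and 0 FPKM in WT, a level carried by KO 1. Dlx4 had the converse, at 0 and 2.12 FPKM in KO and at 0 and 0.013 FPKM in WT, and Dlx3 did not exceed 0.021 FPKM. Thus Dlx5, Dlx4 and Dlx6os1 were each split between the KO libraries, whereas Dlx2 was present in both.

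**Figure D2:**
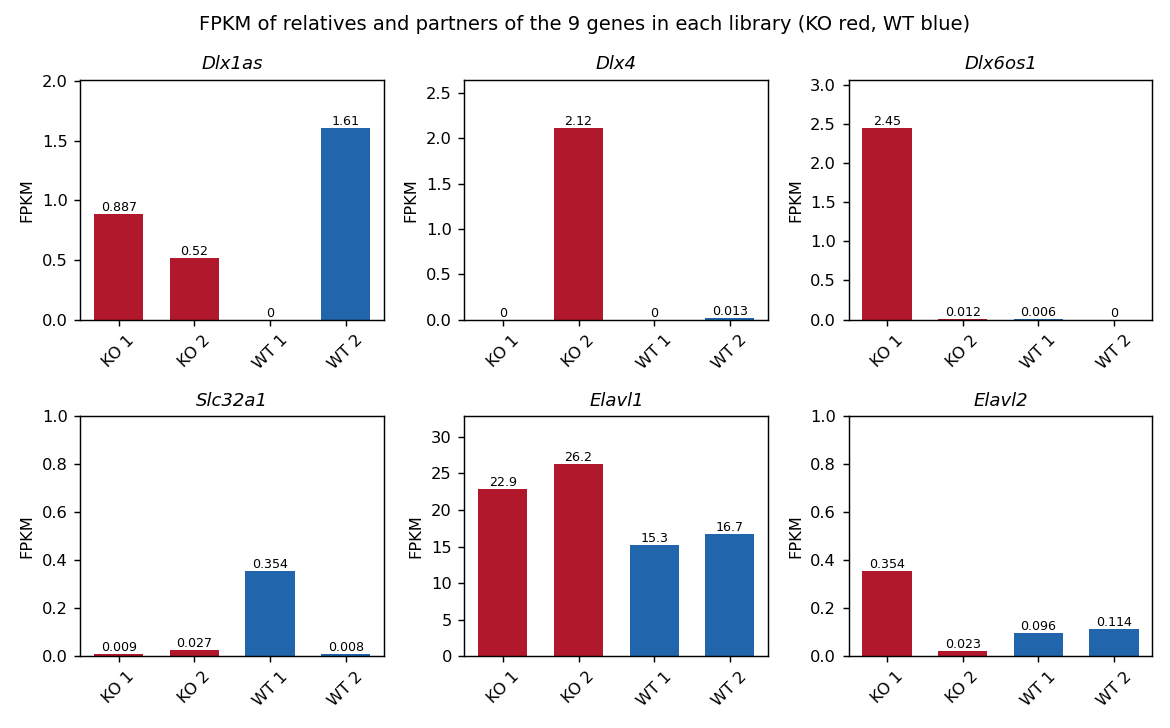
FPKM of Dlx1as, Dlx4, Dlx6os1, the vesicular GABA transporter gene Slc32a1 and the Elavl relatives Elavl1 and Elavl2 in each KO (red) and WT (blue) library, each on its own axis from 0. Dlx4 and Dlx6os1 were above 1 FPKM in a single KO library each, and Elavl1 was higher in both KO libraries.

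Lhx6 was not measurably present. It was listed at 0 and 0.001 FPKM in KO 1 and KO 2 and at 0 and 0.001 FPKM in WT 1 and WT 2, which is less than the worth of 1 read on its 3481 bp transcript. Lhx8, a related factor, did not exceed 0.005 FPKM in any library.

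Gad1 and Gad2 encode the enzymes that make GABA from glutamate, and neither separated the genotypes. Gad1 was at 0.419 and 0.661 FPKM in KO 1 and KO 2, against 0.261 and 0.922 FPKM in WT 1 and WT 2, a mean of 0.54 ± 0.17 FPKM in KO and 0.59 ± 0.47 FPKM in WT (SD, n = 2 each). The WT libraries again bracketed the KO libraries. Gad2 was at 0 and 1.34 FPKM in KO 1 and KO 2, and at 0.003 and 0.764 FPKM in WT 1 and WT 2. Within each genotype a single library thus carried nearly all of it, KO 2 with about 301 reads and WT 2 with about 194. The difference between genotypes was 0.20 for Gad2 on the log2(FPKM + 1) scale, against a replicate SD of 0.74.

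Those same libraries, KO 2 and WT 2, also had the higher summed levels of microglia, vascular and choroid markers. Not every member followed its sum. In KO 1 and KO 2, C1qa was at 10.4 and 9.46 FPKM, Tmem119 at 2.24 and 0.024 FPKM, and Col1a2 at 1.54 and 0.342 FPKM. Of 12 endothelial and mural markers, 2 and 7 were at 1 FPKM or more in KO 1 and KO 2, against 0 and 7 in WT 1 and WT 2. Cldn5, a tight junction gene of brain endothelium, was at 0.035 and 26.3 FPKM in KO and at 0 and 26.8 FPKM in WT, while Pecam1 was at 0.002 FPKM or less throughout. The 12 microglia markers summed to 36.2 and 135.8 FPKM in KO and to 35.2 and 126.0 FPKM in WT, with 6 and 10 of them at 1 FPKM or more in KO and 4 and 10 in WT. The 7 ependymal and choroid markers summed to 12.9 and 129.9 FPKM in KO and to 4.98 and 96.7 FPKM in WT, mostly from Ttr, a choroid plexus gene. Their part in the Gad2 values was not tested. Dlx2 was at 3.65 FPKM in KO 1, where these sums were low, and at 0.055 FPKM in WT 2, where they were high. The part of other cell types in the Dlx2 values was not tested either.

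**Figure D3:**
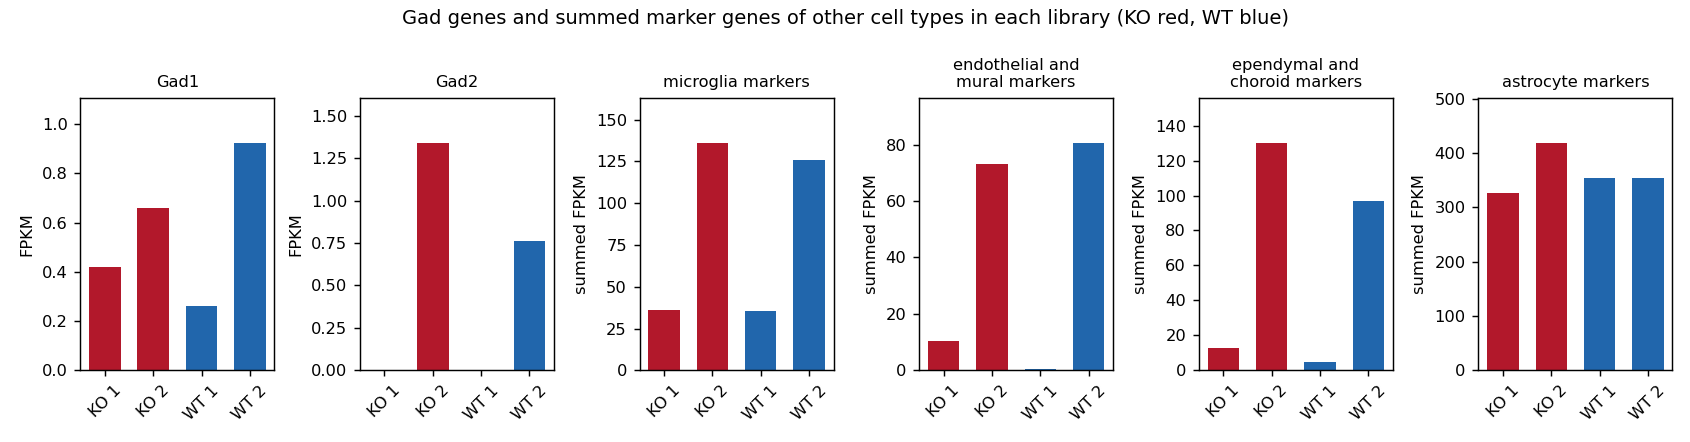
FPKM of Gad1 and Gad2, and the summed FPKM of the microglia, endothelial and mural, ependymal and choroid, and astrocyte markers, in each KO (red) and WT (blue) library, with axes from 0. Gad2 and the first 3 marker sums were higher in KO 2 and WT 2 than in KO 1 and WT 1. The astrocyte sum lay between 327.1 and 417.8 FPKM in all 4 libraries, but its members went both ways. Gja1 was at 3.35 and 25.9 FPKM in KO 1 and KO 2, and at 1.10 and 37.9 FPKM in WT 1 and WT 2. S100b ran the other way, at 145.2 and 73.9 FPKM in KO and at 228.2 and 108.4 FPKM in WT.

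Other genes of GABA handling were measured beside Gad1 and Gad2. Slc32a1, which loads GABA into synaptic vesicles and defines GABAergic neurons, was at 0.009 and 0.027 FPKM in KO and at 0.354 and 0.008 FPKM in WT. Of 13 tested genes of GABA synthesis, transport and breakdown, 4 had both KO libraries higher and 1 lower, and 8 overlapped, with a median difference of 0.060. None of the 13 passed the test (limma, adjusted p under 0.05), and 1 had an unadjusted p under 0.05. Among all tested rows 16.6% had both KO libraries higher and 18.3% lower. These shares are the background for the same counts in every list below. Slc6a11, a GABA uptake transporter gene, was at 9.23 and 7.24 FPKM in KO and at 2.30 and 6.09 FPKM in WT (log2 difference 0.93, SE 0.47; limma adjusted p = 0.91). The amino acid transporter gene Slc38a3 was at 25.0 and 24.9 FPKM in KO and at 14.9 and 17.1 FPKM in WT (0.62, SE 0.24; limma adjusted p = 0.88).

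GABA receptor subunits and their trafficking proteins were measured too, since cells of the oligodendrocyte lineage carry GABA receptors. Of 12 tested, 3 had both KO libraries higher and 1 lower, 8 overlapped, and 0 passed the test (limma), with 0 at an unadjusted p under 0.05. Gabrg1, a gamma subunit, was at 5.71 and 7.87 FPKM in KO and at 5.53 FPKM in both WT libraries. The median difference of the 12 was 0.24.

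The neuronal genes Dcx, Elavl3 and Elavl4 were low and mostly even across libraries. Dcx (chromosome X) was at 0.882 and 1.30 FPKM in KO 1 and KO 2, against 1.18 and 1.17 FPKM in WT 1 and WT 2. Its WT pair fell inside the KO pair, and the means were 1.09 ± 0.29 FPKM in KO and 1.17 ± 0.0042 FPKM in WT (SD, n = 2 each). Its relatives Dclk1 and Dclk2 overlapped between genotypes as well, at 0.418 and 0.652 FPKM in KO against 0.374 and 0.561 FPKM in WT for Dclk1.

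Elavl3 (chromosome 9) was at 2.65 and 1.56 FPKM in KO 1 and KO 2, and at 2.06 and 3.30 FPKM in WT 1 and WT 2. KO 1 lay between the WT libraries, and the difference of -0.25 was smaller than the replicate SD of 0.36 on the log2(FPKM + 1) scale. Elavl4 (chromosome 4) was at 1.15 and 1.50 FPKM in KO, against 1.09 and 0.825 FPKM in WT. Both KO libraries were higher, by 0.062 FPKM between the nearest pair, and after quantile normalization the genotypes overlapped. The difference for Elavl4 was 0.25 on the log2(FPKM + 1) scale, with a replicate SD of 0.15. Elavl2 was at 0.354 and 0.023 FPKM in KO and at 0.096 and 0.114 FPKM in WT. The ubiquitous family member Elavl1 was far more abundant, at 22.9 and 26.2 FPKM in KO and at 15.3 and 16.7 FPKM in WT (log2 difference 0.59).

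In order of mean level, the KO libraries gave Dlx2 (4.24 FPKM), Elavl3 (2.10), Elavl4 (1.33), Dcx (1.09), Gad2 (0.669), Dlx5 (0.657), Gad1 (0.540), Dlx1 (0.134) and Lhx6. The WT libraries gave Elavl3 (2.68 FPKM), Dcx (1.17), Elavl4 (0.958), Gad1 (0.592), Dlx5 (0.530), Gad2 (0.384), Dlx1 (0.198), Dlx2 and Lhx6. In KO, the library values of each neighbouring pair from Elavl4 to Gad1 overlapped, so their order is not settled. In WT the same held from Elavl4 down to Lhx6. Dlx2 ranked 1st in KO and 8th in WT, while the ranks of each of the other 8 genes differed by at most 3 places. Without Dlx2 the summed level of the members was 5.28 and 7.76 FPKM in KO 1 and KO 2, against 5.10 and 7.92 FPKM in WT 1 and WT 2, so the genotypes overlapped.

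Other genes of GABAergic interneurons did not follow Dlx2 as a group. Of 46 listed genes 20 were tested, and 20 did not reach 1 FPKM in any library. Both KO libraries were higher for 3 of the 20 tested, lower for 0, and 17 overlapped, with a median difference of 0.20 and 0 past the test (limma; 0 at an unadjusted p under 0.05). Over all tested rows the shares were 16.6% higher and 18.3% lower. Among the 3 were the chemokine receptor gene Ackr3 (13.3 and 10.3 FPKM in KO, 7.93 and 6.04 in WT) and Nxph1, which encodes a neurexin ligand (26.9 and 23.3 FPKM in KO, 18.5 and 18.8 in WT). Without WT replicate 1 the median of this list was -0.023, the only one of the 11 alternatives that turned its sign, and without WT replicate 2 it was 0.44.

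Sp9, which acts beside Dlx factors in the ganglionic eminences, was at 1.78 and 2.69 FPKM in KO and at 0.029 and 2.51 FPKM in WT. Gsx2, an upstream patterning gene, was at 6.65 and 1.29 FPKM in KO and at 1.76 and 0.027 FPKM in WT. Among neuropeptide genes of interneurons, Npy was at 32.6 and 7.04 FPKM in KO and at 29.4 and 15.7 FPKM in WT, with the genotypes overlapping. Sst was at 4.36 FPKM in KO 1 and listed at 0 elsewhere, and Vip and Cck did not exceed 0.01 FPKM. These 6 genes were picked out after their values were seen.

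Pan-neuronal and immature neuron genes were tested for 36 of 50. Both KO libraries were higher for 10 and lower for 3, with 23 overlapping and a median difference of 0.14. The median was 0.012 without WT replicate 1, 0.37 without WT replicate 2 and 0.29 without KO replicate 1. None passed the test (limma), and 3 had an unadjusted p under 0.05. Stmn2, a tubulin-binding protein of growing axons, was at 3.67 and 6.57 FPKM in KO and at 1.35 and 0.503 FPKM in WT (log2 difference 1.66, SE 0.45; limma adjusted p = 0.86). Dpysl5, an axon growth gene, was at 2.39 and 2.90 FPKM in KO and at 0.865 and 0.95 FPKM in WT (0.93, SE 0.35). It reached the minimum for testing through the KO libraries alone. Map1b, a microtubule-associated protein gene, went the other way, at 22.1 and 13.2 FPKM in KO and at 39.3 and 26.4 FPKM in WT (-0.87, SE 0.36). The summed level of the list was 1465 and 1962 FPKM in KO, against 1277 and 1948 FPKM in WT. Rbfox3, which marks mature neurons, did not exceed 0.084 FPKM, and Myt1l did not exceed 0.06 FPKM. They were not typical of the list, since 12 of the 50 genes stayed under 1 FPKM in every library. Syp was at 38.0 and 33.6 FPKM in KO and at 28.7 and 13.9 FPKM in WT. Syn1 was at 18.4 and 13.7 FPKM in KO and at 12.4 and 19.5 FPKM in WT. Syp and Syn1 were also picked out after their values were seen. The part of neuronal RNA in the Dlx2 values was not tested.

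Genes of cortical excitatory neurons, which use other factors in place of Dlx, were mostly close to 0. Of 32 listed genes, 21 did not reach 1 FPKM in any library, and 8 were tested. Both KO libraries were higher for 4 and lower for 1, 3 overlapped, the median difference was 0.38 and 0 passed the test (limma; 2 at an unadjusted p under 0.05). That median was 0.16 without KO replicate 2 and 0.25 without WT replicate 1. Emx1, a homeobox gene of dorsal forebrain progenitors, was at 5.34 and 2.66 FPKM in KO and at 0.733 and 0.117 FPKM in WT (log2 difference 1.79, SE 0.47; limma adjusted p = 0.86). Nrn1, a neurite growth gene, was at 0.228 and 0.805 FPKM in KO and at 2.31 and 2.08 FPKM in WT (-1.10, SE 0.40). Emx1 reached the minimum for testing through the KO libraries alone, and Nrn1 through the WT libraries alone. Their place among the tested genes thus depended on the genotype in which they were high. Slc17a7, the vesicular glutamate transporter gene of these neurons, did not exceed 0.031 FPKM.

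**Figure D4:**
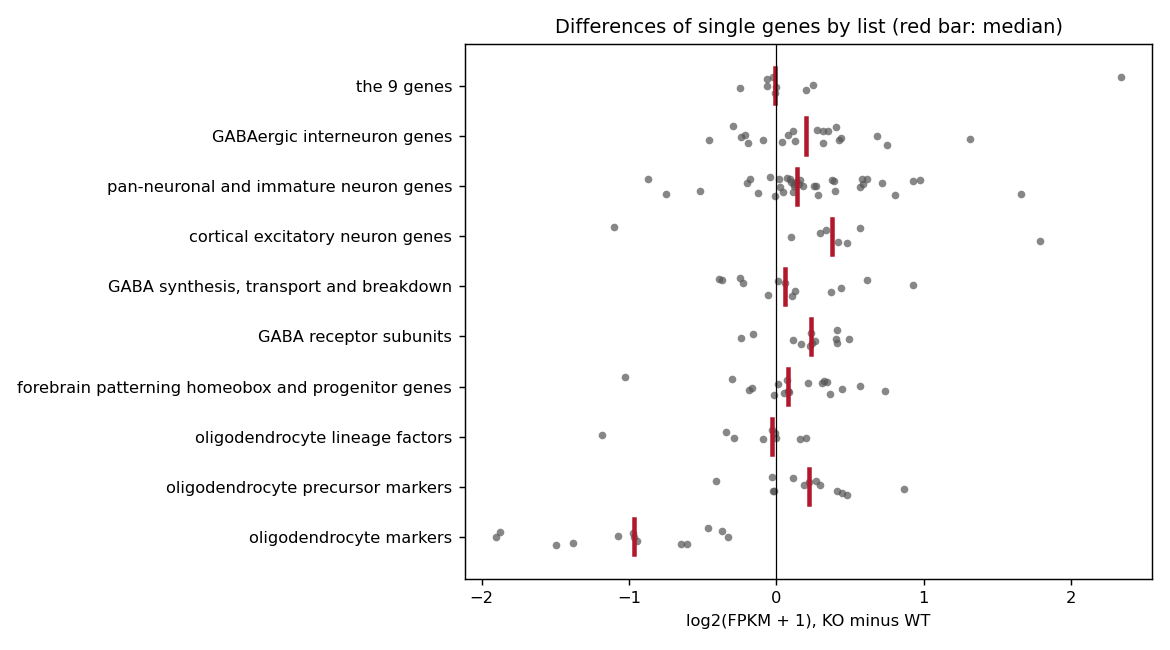
Differences of KO minus WT in log2(FPKM + 1), 1 point per gene, for the 9 genes and for the tested members of 9 other gene lists, with the median of each list as a red bar. Among the 9 genes Dlx2 stood at 2.34 and the others between -0.25 and 0.25, and the medians of the neuronal lists lay between 0.14 and 0.38.

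Within the oligodendrocyte lineage itself, Olig2, which Dlx1 and Dlx2 are known to repress in the ventral forebrain, was at 454.1 and 453.0 FPKM in KO, against 390.2 and 399.5 FPKM in WT. It was thus higher in both KO libraries (log2 difference 0.20, SE 0.099; limma adjusted p = 0.91). Any action of Dlx2 on Olig2 in these cells was not tested. Among 13 tested oligodendrocyte markers both KO libraries were lower for 7 and higher for 0, with a median difference of -0.96. That median was -1.53 without KO replicate 1 and -0.41 without KO replicate 2. Among 13 tested precursor markers 7 were higher and 0 lower, with a median of 0.22, which was 0.042 without KO replicate 1 and 0.41 without KO replicate 2. None of these markers passed the test (limma; 2 of each list at an unadjusted p under 0.05). Over all tested rows both KO libraries were higher for 16.6% and lower for 18.3%. The summed FPKM of all 14 oligodendrocyte markers was 763.6 and 371.4 in KO and 1130 and 696.9 in WT, and that of all 14 precursor markers was 2390 and 1904 in KO and 1953 and 1834 in WT. The part of these markers' difference in the Dlx2 values was not tested.

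The mean profile of the 9 genes, each centred on its own mean in log2(FPKM + 1), was -0.027 and 0.29 in KO 1 and KO 2 and -0.26 and -0.0050 in WT 1 and WT 2. By Euclidean distance over the 4 libraries the nearest tested genes were Med25 (0.010), Cux1 (0.043), Rcn2 (0.048) and Gnl1 (0.055). With 4 libraries such likeness describes these values only. The genotype contrast in this mean profile came mostly from Dlx2. Its difference was 2.34, while those of the other members lay between -0.25 and 0.25. The median difference of the 9 genes was -0.0086, so the profile does not stand for its single members.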

How the data were processed

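The authors deposited FPKM, per the file header, with a column for each library. TopHat (version not stated) and mm10 are named in the submitters' processing notes. The sources used here do not name the quantifier, the annotation, the strand setting or any filter. FPKM are not counts, so values were analysed as log2(FPKM + 1), which understates differences of low genes. Rows with at least 1 FPKM in at least 2 of the 4 libraries were fitted with limma 3.58.1 in R 4.3.3 (genotype, mean-variance trend, Benjamini-Hochberg adjustment over all rows, two-sided). The fit was tested on simulated data, which does not show how well it does on these libraries. Replicate SD is the pooled SD of the 2 libraries of each genotype. A read's worth was taken as the fullest 0.001-wide bin of FPKM times the longest GENCODE M21 transcript, so reads are approximate.

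The 9 genes and the 14 other lists were chosen with earlier results of these data known. From each list the text names up to 3 higher and 3 lower genes with the largest non-overlapping differences, besides fixed partners; Cldn5, Pecam1, Ttr, Mal, Rbfox3, Myt1l, Slc17a7, Metap1d and others said in the text were named after their values were seen. Symbols, neighbours and promoters came from RefSeq GRCm38.p6 (8 of the 9 genes had a promoter entry) and gene models from GENCODE M21. Some genes that this rule names are not reported here. Alternatives were another pseudocount, 2 other filters, TPM rescaling, quantile normalization, no variance trend, a replicate block and leaving out each library.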

Additional observations from a re-analysis of the deposited data

How the results depend on the processing

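Under all 11 alternatives 0 rows passed the adjusted threshold (limma). The number at an unadjusted p under 0.05, 608 as reported, was 1123 with no filter, of 22897 rows tested. Leaving out 1 library gave between 322 and 618, and the other alternatives lay between 533 and 609 apart from the replicate block. With the replicate number as a block it was 1025. The labels give no sign that a number marks a shared litter or day, although the differences between libraries 1 and 2 correlated across genes at 0.29 between KO and WT. The median of the 9 genes stayed within its replicate SD of 0.43 in every alternative, between -0.084 and 0.15. The count of genes with both KO libraries above both WT libraries, re-examined after seeing the data, was 1 after quantile normalization, which removed Elavl4, and lay between 2 and 5 when a library was left out, since fewer libraries overlap less often. Of 23 differences of single genes and list medians, 14 turned sign in at least 1 alternative; Dlx2 and Elavl4 did not. The list medians ranged from -1.53 to -0.41 for oligodendrocyte markers, from 0.042 to 0.41 for precursor markers, from -0.023 to 0.44 for GABAergic interneuron genes, from 0.012 to 0.37 for pan-neuronal genes, from 0.16 to 0.51 for cortical excitatory neuron genes, from 0.0086 to 0.30 for GABA handling and from 0.11 to 0.36 for GABA receptor genes. For Lhx6, listed below the worth of 1 read in every library, no difference could be measured at this depth.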

Other observations

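Forebrain patterning and progenitor genes, several of which act beside Dlx factors in the embryo, were read in all 4 libraries. Of 32 listed genes 18 were tested, with both KO libraries higher for 2, lower for 3 and 13 overlapping, and 0 past the test (limma; 1 at an unadjusted p under 0.05). Dll1, a Notch ligand of committing progenitors, was at 9.29 and 9.61 FPKM in KO and at 6.32 and 5.78 FPKM in WT, and Pou3f3, a POU factor, at 8.50 and 9.0 FPKM in KO and at 5.93 and 7.89 FPKM in WT. Gadd45g, a growth arrest gene, was at 34.3 and 35.7 FPKM in KO and at 74.3 and 70.9 FPKM in WT. Gsx1, a ganglionic eminence homeobox gene picked out after its values were seen, was at 30.3 and 57.8 FPKM in KO and at 30.3 and 51.5 FPKM in WT, far above every Dlx gene.

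Of 9 tested oligodendrocyte lineage factors, 2 had both KO libraries higher, 2 lower and 5 overlapped. Nkx6-2, a homeobox gene of mature oligodendrocytes, was at 1.50 and 1.48 FPKM in KO and at 9.82 and 1.96 FPKM in WT. The genotypes overlapped for all 7 tested astrocyte markers, all 10 microglia markers, all 6 endothelial and mural markers and both tested ependymal and choroid markers. Of 5 erythrocyte markers 1, Alas2, was higher in both KO libraries (2.0 and 1.09 FPKM in KO, 0 and 0.974 FPKM in WT). Alas2 reached the minimum for testing through the KO libraries alone. None of the genes on these lists passed the test (limma), and 0 on each had an unadjusted p under 0.05.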
